A study of Homo sapiens with 2 samples.

Results

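The 34 genes described here carry glucose into the cell, break it down to pyruvate, turn pyruvate into lactate and export it, hold pyruvate back from the mitochondria, or store and rebuild glucose. They were taken by gene symbol from a fixed list, and all 34 were found among the 26255 symbols of the deposited tables. The tumours were grown from HT-29, an established human colon cancer line, under the skin of female NOD SCID mice, a strain that lacks T and B cells. The mice were 5 weeks old when obtained and were given either normal food (the normal diet) or food lacking methionine, tryptophan and niacin (the depleted diet). Rearing lasted 2 weeks by one statement of the design text, and the experiment 3 weeks by another. Each diet is represented by 1 RNA sequencing library, so no value has a replicate, no p-value can be given, and diet cannot be told apart from any other difference between the tumours. How many mice a library stands for, the sources used here do not say.

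In glycolysis, glucose that enters through a carrier of the SLC2A family is phosphorylated by hexokinase, split into triose phosphates and oxidised to pyruvate, with a net gain of ATP. Tumour cells often send much of the pyruvate to lactate, which leaves with a proton through SLC16A carriers, and pyruvate dehydrogenase kinases limit the part that enters the mitochondria. Many of these genes have isozymes that differ in their tissue range and in their control. In low oxygen, hypoxia-inducible factor (HIF) is known to raise genes that include SLC2A1, ALDOA, PGK1, ENO1, LDHA, SLC16A3 and PDK1. This list is not complete. MYC is known to raise LDHA as well.

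Levels are given as FPKM, which count fragments relative to transcript length and library depth, so that genes of different length can be set side by side. Where a sentence gives a pair of levels, the normal diet comes first and the depleted diet second. Differences are given as a log2 ratio, log2((depleted + 1)/(normal + 1)), in which negative values mean a lower level on the depleted diet. A gene counted as measured when its mean over both libraries was at least 1 FPKM, as held for 12414 genes and for 33 of the 34 members. The epithelial identity of the tumours was seen in all 12 colon epithelium markers, which were measured with summed levels of 10355 and 9510 FPKM. The steps in low values put the depth near 6.99e+06 fragments in the normal-diet library and 6.72e+06 in the other. The counting error quoted with a ratio is the standard error on the log2 scale that this depth gives for the shortest annotated coding transcript. It covers counting only and leaves out the spread between tumours. For genes with a short annotated transcript it exceeds the error at the median length, so it is not a lower limit on that spread.

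The glycolytic genes were lower as a group in the depleted-diet library. Of the 33 measured members 26 were lower and 7 higher, with a median log2 ratio of -0.18, where 50.6% of all measured genes were lower and their median was -0.003. By more than about 2 counting errors, 17 members were lower and 2 higher. The other 14 measured members lay within that range of 0, so counting alone could give their direction. In bulk tumour RNA, fewer cells that use these genes and less of their RNA per cell cannot be told apart. A line was drawn at 80% of the normal-diet value, or 125% for higher genes, after 1 FPKM was added to each value. Below the 80% line were 7 members, namely PDK1, ENO2, SLC2A1, ALDOA, SLC16A3, PGK1 and ALDOC, against 7.15% of all measured genes. None was above the 125% line, against 6.94% of all measured genes, and none differed by 1.5-fold. The lines lie 0.32 from 0 on the log2 scale, with ALDOC (-0.32) and PGK1 (-0.33) just past the lower one and PDK3 (-0.31) and LDHA (-0.29) just short of it. When both libraries were scaled to a common sum of FPKM, 4 members were past it.

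High expression itself went with lower values in this library. Of 731 genes averaging 100 FPKM or more, 66.6% were lower, and their median log2 ratio was -0.06. Of the 12 members in that range 11 were lower, with a median of -0.19, and 3 were below the 80% line, against 3.42% of the 731 genes. The 14 members from 20 to 100 FPKM had 10 lower and a median of -0.15. Of all genes averaging 20 FPKM or more, 55.3% were lower, with a median of -0.02. Together the 34 members made up 2.14% of all FPKM on the normal diet and 1.92% on the depleted diet, and the 5 most abundant of them held 68.3% of that sum in each library.

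**Figure D1:**
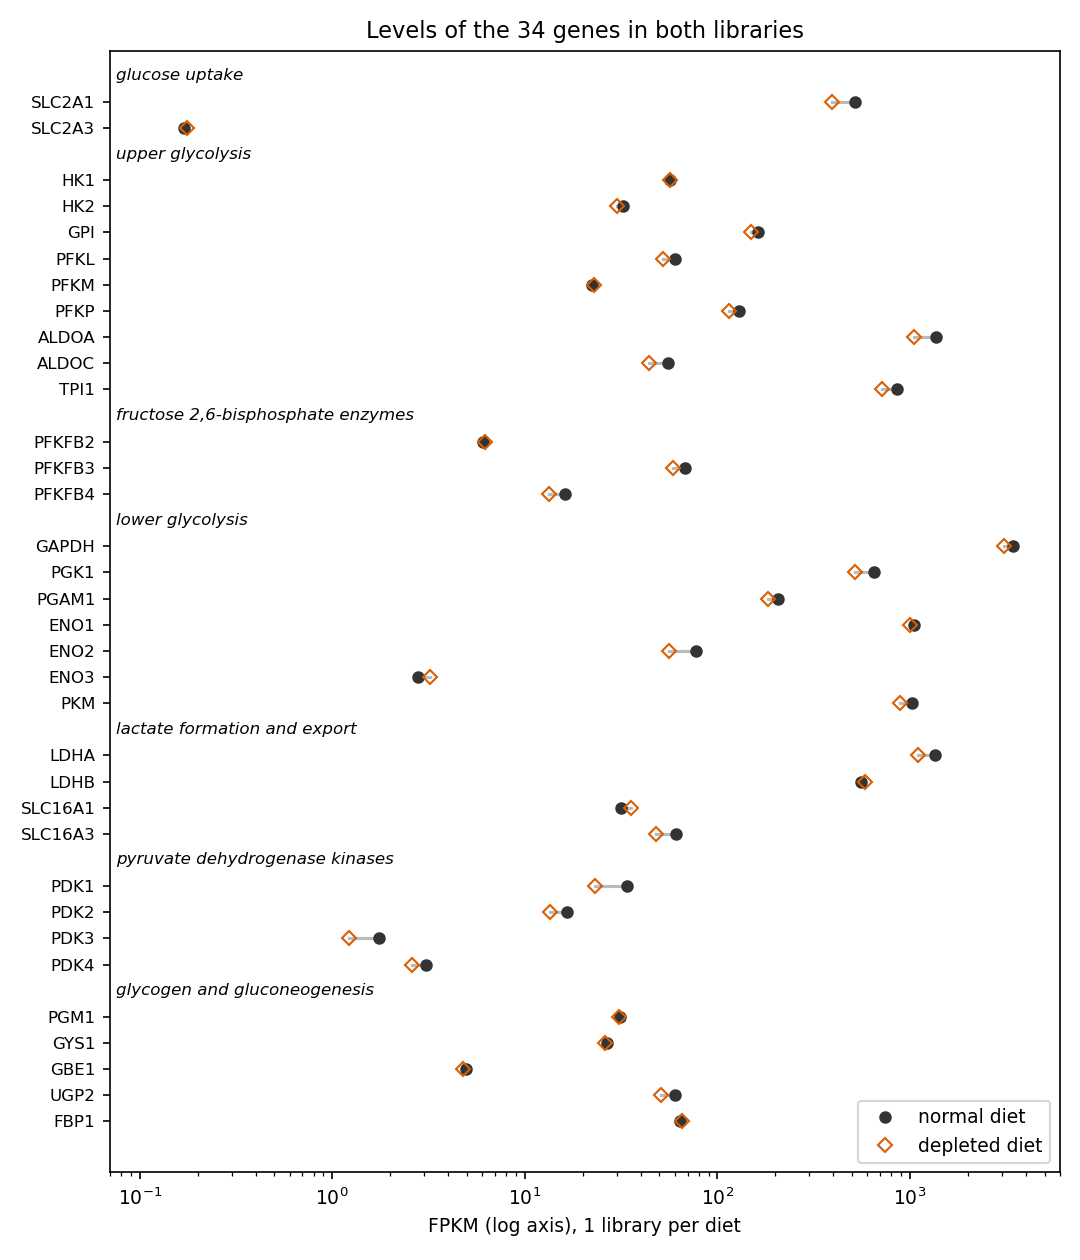
FPKM of each of the 34 genes on a log axis, grouped by role, in the library of the normal diet (filled circles) and of the depleted diet (open diamonds), with 1 library per diet and no error bars. The open diamond lies to the left of the filled circle for 26 genes, with the widest gaps in PDK1, PDK3 and ENO2, and PDK3 lies below 2 FPKM.

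Of the 2 glucose carriers among the members, nearly all transcript was from SLC2A1. SLC2A1 (GLUT1), the basal glucose carrier of most cells, was at 518 and 394 FPKM, with a log2 ratio of -0.39 with a counting error of 0.05. Of the 181 genes whose level lay within 2-fold of its own, 1.1% had a lower ratio. SLC2A3 (GLUT3), a carrier of high affinity best known from neurons, was at 0.170 and 0.177 FPKM. These 2 values differ by the factor of 1.04 that separates the value of 1 fragment in the 2 libraries, as equal numbers of fragments would give. Carriers outside the member list were also measured, among them SLC5A1 (SGLT1), which takes up glucose with sodium, at 17.0 and 16.5 FPKM and SLC2A8 at 7.47 and 7.38 FPKM.

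Hexokinase, which traps glucose as glucose 6-phosphate, differed little. HK1, the housekeeping form, was at 56.8 and 57.1 FPKM (log2 ratio 0.01, counting error 0.06). HK2, the inducible form that is frequent in tumours, was at 32.4 and 30.2 FPKM (-0.10, counting error 0.06). HKDC1, a hexokinase-like gene outside the member list, supplied about as much transcript as HK2. Of the summed hexokinase FPKM, HK1 held 46.1% and 47.6%, HK2 26.3% and 25.2%, and HKDC1 27.6% and 27.2%. GPI, which turns glucose 6-phosphate into fructose 6-phosphate, was at 163 and 149 FPKM (-0.13, counting error 0.04).

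Phosphofructokinase, the committed step, showed a small difference between its forms. PFKP, the platelet form and the most abundant here, was at 129 and 115 FPKM (log2 ratio -0.17, counting error 0.05), and PFKL, the liver form, at 60.0 and 52.2 FPKM (-0.20). PFKM, the muscle form, was at 22.5 and 22.8 FPKM (0.02). For PFKL and PFKM a short annotated transcript raises the counting error to 0.29 and 0.27, which covers both ratios. At the median transcript length the error was 0.08 and 0.10, smaller than the ratio of PFKL. The 6-phosphofructo-2-kinases make fructose 2,6-bisphosphate, the strongest activator of phosphofructokinase. PFKFB3, with the highest kinase activity of the family, was at 68.1 and 58.6 FPKM (-0.21, counting error 0.07). PFKFB4 was at 16.1 and 13.3 FPKM (-0.26, counting error 0.17) and PFKFB2 at 6.08 and 6.18 FPKM (0.02), so PFKFB3 supplied 75.4% and 75.05% of the transcript of these 3 genes in the normal-diet and depleted-diet libraries.

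The aldolases and triose phosphate isomerase were all lower on the depleted diet. ALDOA, which splits fructose 1,6-bisphosphate, was at 1374 and 1049 FPKM (log2 ratio -0.39, counting error 0.02). Among the 103 genes within 2-fold of its level, 0.971% had a lower ratio. ALDOC, the brain form, was at 55.4 and 44.1 FPKM (-0.32, counting error 0.09), and it held 3.88% and 4.03% of aldolase transcript. Both aldolases thus differed by a similar amount while ALDOA remained dominant. TPI1, which interconverts the triose phosphates, was at 853 and 715 FPKM (-0.25, counting error 0.03).

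In lower glycolysis 6 of 7 members were lower, with a median log2 ratio of -0.17. GAPDH, PGK1, PGAM1, ENO1 and PKM averaged over 100 FPKM. Lower values were found in 50.6% of all measured genes and in 66.6% of those averaging 100 FPKM or more. GAPDH, the oxidising step and a common reference gene, was at 3411 and 3084 FPKM (-0.15, counting error 0.01). PGK1, the first ATP-forming step, was at 649 and 518 FPKM (-0.33, counting error 0.02). PGAM1, a mutase, was at 208 and 184 FPKM (-0.17), and PKM, the pyruvate kinase of tumour and muscle cells, at 1025 and 888 FPKM (-0.21, counting error 0.02). The ratio of PGK1 was thus below those of the genes before and after it in the pathway.

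The enolases, which make phosphoenolpyruvate, had unlike ratios. ENO1, the ubiquitous form, was at 1049 and 1002 FPKM, and its log2 ratio of -0.07 was close to the median of genes at 100 FPKM or more. ENO2, the form known from neurons and neuroendocrine cells, was at 77.3 and 56.1 FPKM (-0.45, counting error 0.08). Of 2092 genes within 2-fold of the level of ENO2, 1.29% had a lower ratio. The FPKM of ENO2 per FPKM of ENO1 was 0.0737 on the normal diet and 0.056 on the depleted diet. Of the 8 neuronal and neuroendocrine markers only SYP and TUBB3 were measured, at 1.82 and 1.18 FPKM and at 10.4 and 9.02 FPKM, and the summed level of all 8 was 13.3 and 11.9 FPKM. Of the markers that were not measured, SCG2 was higher, at 0.697 and 1.28 FPKM, as were ELAVL4 and NCAM1, while CHGA and SYT1 were lower. CHGB was at 0 in both libraries, and the part of such cells in the ENO2 difference was not tested.

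ENO3, the muscle enolase, was at 2.77 and 3.20 FPKM (log2 ratio 0.16), within a counting error of 0.39. Its exons overlap those of PFN1 on the other strand, a profilin gene at 397 and 401 FPKM, and whether counting used the strand is not stated in the labels or file headers. Of 12 skeletal muscle markers 3 were measured (TNNI2, TNNC2 and MB), with a summed level over all 12 of 25.2 and 23.0 FPKM, while ACTA1 and CKM stayed under 0.2 FPKM and MYH1 and MYLPF were at 0. TNNI2, a fast-muscle troponin, made up most of that sum, at 20.2 and 17.7 FPKM, beside 22.5 and 22.8 FPKM for the muscle form PFKM. The part of muscle cells in the ENO3 and PFKM values was not tested.

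**Figure D2:**
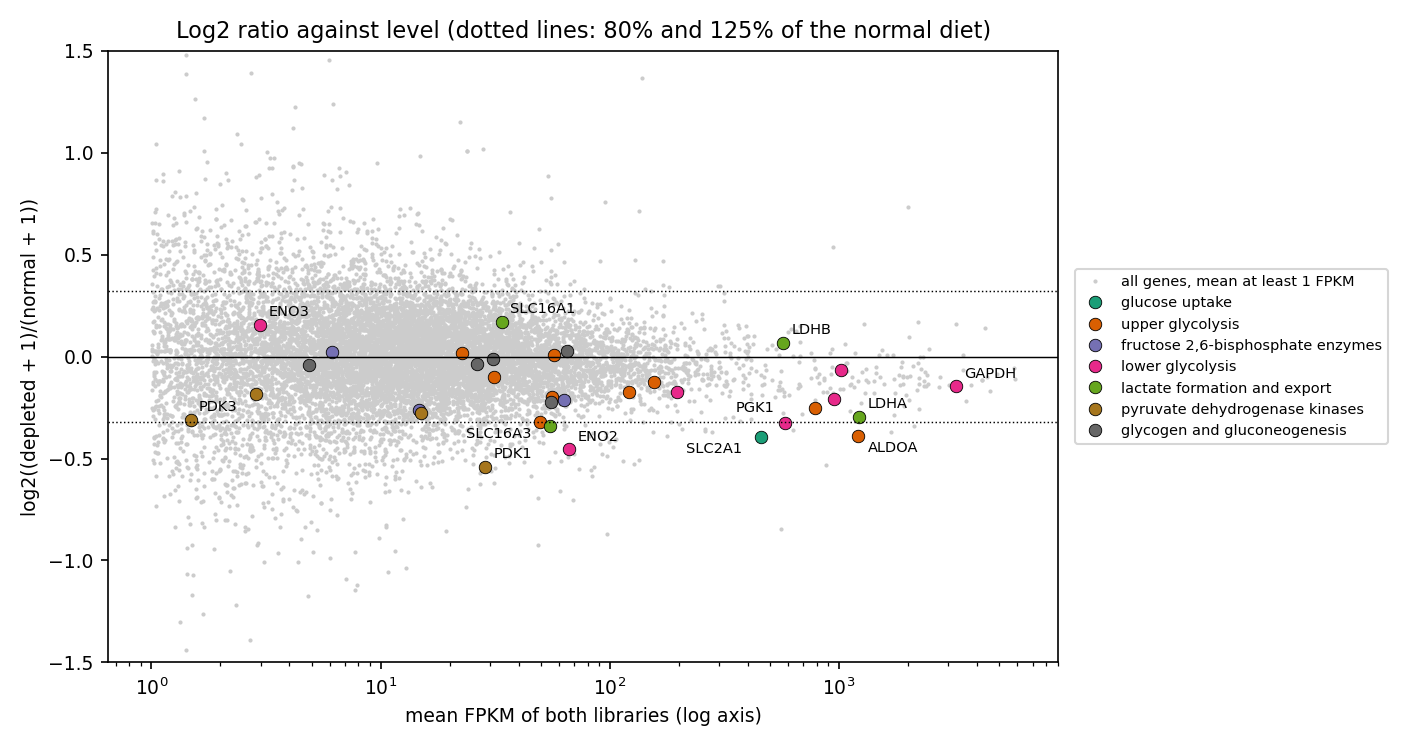
Log2 ratio of the depleted to the normal diet against the mean FPKM of both libraries on a log axis, for all measured genes (grey) and the 33 measured members (coloured by role), 1 library per diet. Of the 12414 genes, 75 lie beyond 1.5 on either side and are not drawn. The members at the right, from SLC2A1 to GAPDH, lie below 0 apart from LDHB.

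Lactate formation and export was split between related genes. LDHA, the lactate dehydrogenase subunit that favours lactate formation, was at 1354 and 1104 FPKM (log2 ratio -0.29, counting error 0.06). LDHB, the subunit that favours pyruvate, was at 559 and 586 FPKM (0.07, counting error 0.03). LDHA accordingly held 70.8% of lactate dehydrogenase transcript on the normal diet and 65.3% on the depleted diet. The ratio of LDHA to LDHB was 2.42 and 1.88, a log2 difference of -0.36 with a counting error of 0.03 for the median transcript length. Such a ratio within a library does not depend on how the 2 libraries are scaled.

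SLC16A3 (MCT4), the lactate exporter of highly glycolytic cells, was at 61.3 and 48.2 FPKM (log2 ratio -0.34, counting error 0.08). SLC16A1 (MCT1), which carries lactate in either direction, was at 31.7 and 35.8 FPKM (0.17, counting error 0.07). It had the highest ratio of the measured members with 1 FPKM added, while with 0.1 FPKM added ENO3 was higher (0.20 against 0.18). SLC16A3 held 65.9% of the transcript of the pair on the normal diet and 57.4% on the depleted diet, and the ratio of SLC16A3 to SLC16A1 was 1.93 and 1.35 (log2 difference -0.52, counting error 0.10). Exons of SLC16A3 overlap CSNK1D on the other strand, which was at 46.3 and 49.1 FPKM, and those of SLC16A1 overlap SLC16A1-AS1, at 2.33 and 3.49 FPKM. BSG, the chaperone that brings both carriers to the membrane, was at 266 and 272 FPKM.

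All 4 pyruvate dehydrogenase kinases, which phosphorylate and switch off the pyruvate dehydrogenase complex, were lower on the depleted diet. So were 50.6% of all measured genes. PDK1 was at 34.05 and 23.1 FPKM, the lowest log2 ratio of the measured members (-0.54, counting error 0.12). Of the 4201 genes within 2-fold of its level, 0.500% had a lower ratio. PDK2 was at 16.6 and 13.5 FPKM (-0.28, counting error 0.13). PDK4, known for its induction in fasting, was at 3.09 and 2.60 FPKM (-0.18, counting error 0.25), and PDK3 at 1.75 and 1.22 FPKM (-0.31, counting error 0.48), both within counting error. PDK1 held 61.4% of the kinase transcript on the normal diet and 57.1% on the depleted diet, and the summed level of the 4 genes was 55.5 and 40.5 FPKM.

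**Figure D3:**
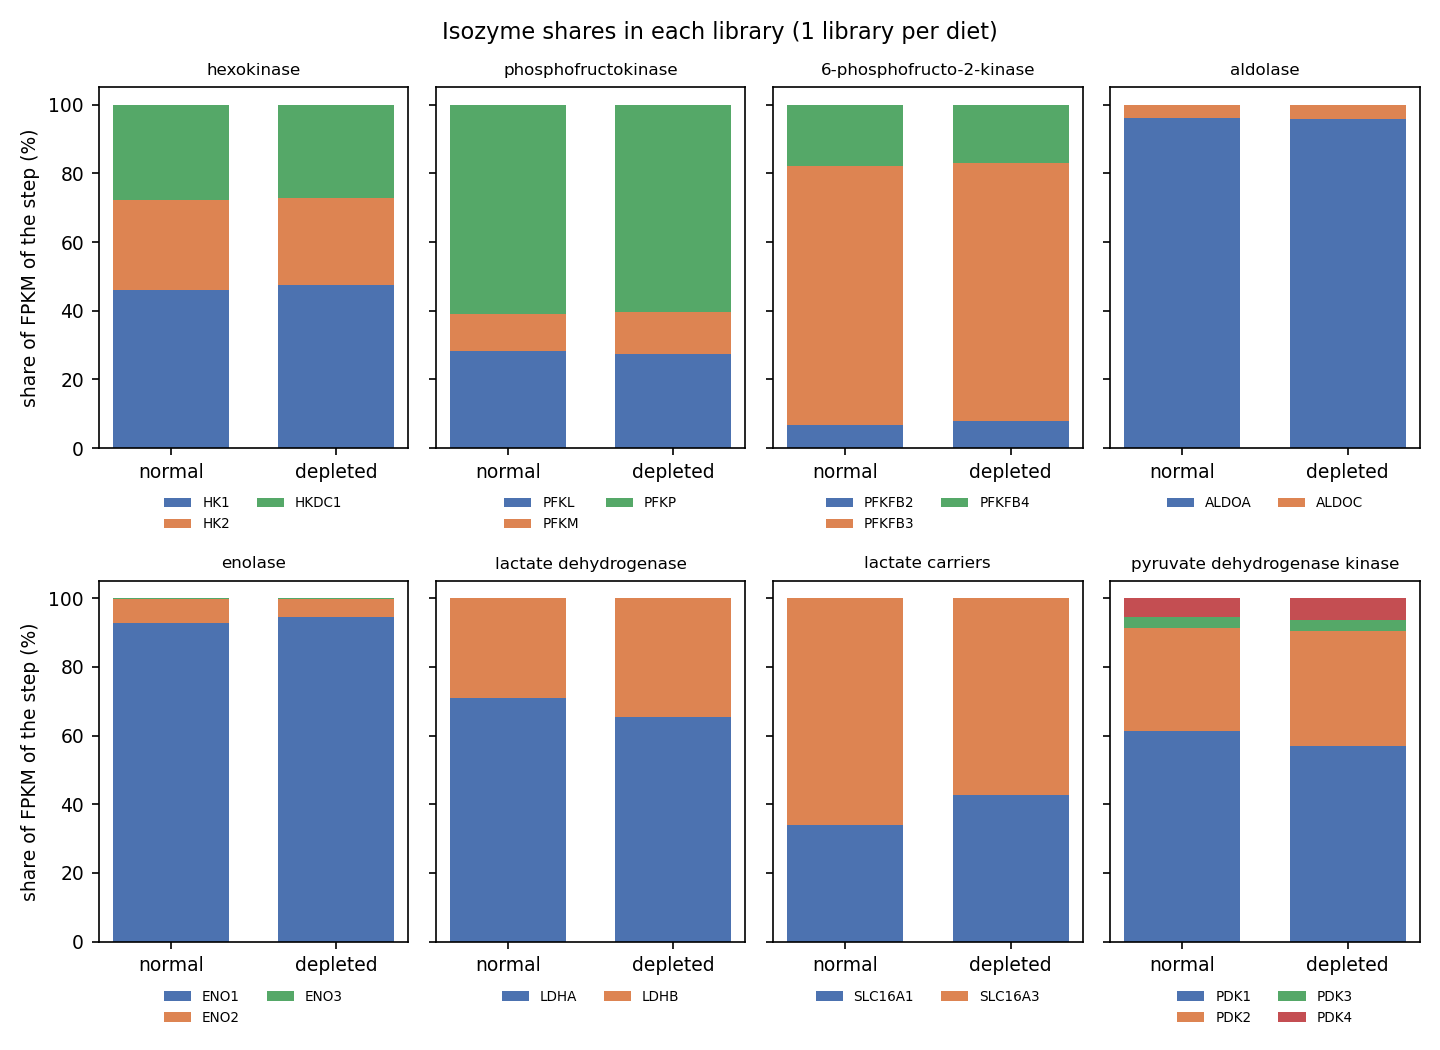
Share of each isozyme in the summed FPKM of its step, in percent, for the library of the normal diet (left bar) and of the depleted diet (right bar), 1 library per diet. The shares of LDHA, SLC16A3 and PDK1 are lower in the right bar by over 4 percentage points, while those of the aldolases differ by under 1 point.

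The glycogen and gluconeogenesis members had a median log2 ratio of -0.03 over 5 genes, the nearest to 0 among the roles. PGM1, which links glucose 6-phosphate to glycogen, was at 31.1 and 30.8 FPKM (-0.01), and GYS1, the muscle-type glycogen synthase, at 26.7 and 26.1 FPKM (-0.03), and both were slightly higher once the libraries were scaled to a common sum. GBE1, the branching enzyme, was at 4.96 and 4.79 FPKM (-0.04, counting error 0.22). FBP1, which reverses the phosphofructokinase step, was at 64.3 and 65.6 FPKM (0.03). UGP2, which makes UDP-glucose for glycogen and for sugar transfer, was at 59.9 and 51.2 FPKM (-0.22), the lowest of the 5, but a short annotated transcript raises its counting error to 0.20. Exons of PGM1 overlap ITGB3BP on the other strand, at 25.2 and 17.9 FPKM.

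The upstream sequences of several members are shown because HIF binds the core letters ACGTG or GCGTG, and because LDHA and LDHB differed. They are the 250 bases before a RefSeq gene start on GRCh38.p14, a build other than that of the expression values, and are written 5′ to 3′ along the gene's strand. The members shown are those below the 80% line with a single annotated start, followed by LDHA, which has 2 starts, and LDHB. Capitals mark ACGTG or, for the other strand, CACGT.
SLC2A1, chr1:42958869-42959118, - strand: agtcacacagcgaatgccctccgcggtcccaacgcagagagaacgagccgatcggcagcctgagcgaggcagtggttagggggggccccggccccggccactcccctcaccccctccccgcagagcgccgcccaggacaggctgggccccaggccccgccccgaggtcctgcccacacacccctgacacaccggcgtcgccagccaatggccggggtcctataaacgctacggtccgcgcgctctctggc
ALDOC, chr17:28576896-28577145, - strand: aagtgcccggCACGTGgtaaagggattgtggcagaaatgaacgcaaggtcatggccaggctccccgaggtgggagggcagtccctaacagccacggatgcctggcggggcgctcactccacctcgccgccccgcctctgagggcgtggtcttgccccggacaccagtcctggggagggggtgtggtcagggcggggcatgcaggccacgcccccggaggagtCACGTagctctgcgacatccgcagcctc
PGK1, chrX:78103998-78104247, + strand: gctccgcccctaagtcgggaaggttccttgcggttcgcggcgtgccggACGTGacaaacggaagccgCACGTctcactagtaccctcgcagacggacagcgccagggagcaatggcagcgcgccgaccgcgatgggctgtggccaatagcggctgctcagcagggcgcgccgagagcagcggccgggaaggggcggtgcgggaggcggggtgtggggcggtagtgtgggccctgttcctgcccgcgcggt
ENO2, chr12:6914330-6914579, + strand: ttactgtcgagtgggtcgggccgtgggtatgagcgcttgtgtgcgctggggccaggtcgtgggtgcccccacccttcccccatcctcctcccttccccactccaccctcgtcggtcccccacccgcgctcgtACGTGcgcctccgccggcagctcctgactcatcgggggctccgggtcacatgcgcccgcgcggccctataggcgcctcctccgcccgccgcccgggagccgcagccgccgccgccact
LDHA, chr11:18394313-18394562, + strand: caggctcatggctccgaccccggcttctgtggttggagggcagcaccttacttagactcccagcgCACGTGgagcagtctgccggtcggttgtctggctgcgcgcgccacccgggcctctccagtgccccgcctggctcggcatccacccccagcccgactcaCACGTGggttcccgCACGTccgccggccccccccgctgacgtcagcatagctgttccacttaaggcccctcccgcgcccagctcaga
LDHA, chr11:18396101-18396350, + strand: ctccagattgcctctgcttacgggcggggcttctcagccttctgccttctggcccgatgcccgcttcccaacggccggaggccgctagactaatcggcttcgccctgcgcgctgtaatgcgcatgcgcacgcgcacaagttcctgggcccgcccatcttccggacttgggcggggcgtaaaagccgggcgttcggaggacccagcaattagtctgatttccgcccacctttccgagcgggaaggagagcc
LDHB, chr12:21657843-21658092, - strand: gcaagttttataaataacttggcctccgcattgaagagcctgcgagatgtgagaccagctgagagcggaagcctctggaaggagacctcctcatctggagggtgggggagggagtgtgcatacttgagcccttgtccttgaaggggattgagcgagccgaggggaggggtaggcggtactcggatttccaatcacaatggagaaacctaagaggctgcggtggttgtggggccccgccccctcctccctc

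In the PGK1 window the letters begin 202 and 183 bases before the start, and in ENO2 118 bases before it. The first LDHA window holds 5 matches, of which 4 come from 2 copies of CACGTG, a palindrome that reads as ACGTG on both strands and is also the E-box bound by MYC and related factors. The second LDHA window, LDHB and SLC2A1 hold no ACGTG on either strand in these 250 bases. GCGTG, which is not marked, was on either strand in the second LDHA window, ALDOC and PGK1, but not in LDHB or SLC2A1. Of 31 members with a window, 19 had ACGTG on either strand in at least 1 window, against 21.7% of all genes with a window. By window, 22 of their 63 held it, against 18.5% of all 35116. Among the 7 members below the 80% line 6 had it, SLC2A1 being the exception, and among the 24 other measured members with a window 13 had it. By window these were 8 of 14 and 14 of 49, since a member can have several. Windows of the same member can overlap, as for HK1, PFKM and ALDOA, so some bases were counted more than once. The letters GCGTG were in 23 of the 63 windows and in 32.2% of all windows, and CACGTG in 7 and in 6.34%. A match in such a window is a description of sequence and not of binding.

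Other genes of glucose metabolism had medians near 0. Of the 37 further glycolytic, glucose carrier and lactate carrier genes 19 were measured, 9 lower and 10 higher, with a median log2 ratio of 0.01. Of these 19 genes 4 were above the 125% line, against 6.94% of all measured genes, and none was below the 80% line. Among the genes of this list averaging 5 FPKM or more, none was above the 125% line. BPGM, which makes 2,3-bisphosphoglycerate, was at 7.55 and 6.35 FPKM (-0.22), and MINPP1, a phosphatase, at 9.29 and 10.1 FPKM (0.11). The pyruvate dehydrogenase complex, its phosphatases, the pyruvate carrier and pyruvate carboxylase had 5 of 11 genes lower and a median below 0.01. PDHX and PDHB, parts of the complex, were at 20.5 and 18.4 FPKM (-0.15) and at 26.8 and 24.1 FPKM (-0.14), while its core subunit DLAT was at 17.1 and 19.2 FPKM (0.15). The summed level of these 11 genes was 180 and 176 FPKM, beside 55.5 and 40.5 FPKM for the 4 kinases.

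The tricarboxylic acid cycle, which burns the pyruvate that enters the mitochondria, had 17 of 28 genes higher and 11 lower. Of all measured genes 50.6% were lower. The median log2 ratio of the cycle was 0.05, between the quartiles of all measured genes (-0.13 and 0.13). CS, citrate synthase, was at 82.3 and 98.6 FPKM (0.26), and IDH2, a mitochondrial isocitrate dehydrogenase, at 165 and 138 FPKM (-0.25). None of the 28 was past the 80% or 125% line.

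HIF targets outside glycolysis were lower in the same library, in 23 of 23 measured genes with a median of -0.34. The share of all measured genes that were lower was 50.6%. Below the 80% line were 13 of the 23, against 7.15% of all measured genes. The list was chosen with earlier results of these data known. Of its genes that were not measured, LOX, RORA and STC2 were higher and BNIP3 was lower. ADM, a vasodilator peptide, was at 74.1 and 46.6 FPKM (-0.66). CA12, a carbonic anhydrase, was at 61.7 and 61.4 FPKM (-0.01). Of the 19 measured genes that control glycolytic genes 8 were lower and 11 higher, with a median of 0.03. HIF1A itself was at 14.6 and 13.9 FPKM (-0.07). EGLN3, an oxygen-sensing hydroxylase that HIF induces, was at 43.1 and 31.7 FPKM (-0.43), and EGLN1, the main such enzyme, at 12.3 and 10.8 FPKM (-0.18). MYC was at 76.1 and 106 FPKM (0.47), and ARRDC4, an arrestin that responds to glucose 6-phosphate, at 8.32 and 12.3 FPKM (0.51). MYC was thus higher in the library where 26 of the 33 measured members were lower, while HIF1A transcript differed little. Protein was not measured, and the part of MYC or HIF in the glycolytic values was not tested.

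**Figure D4:**
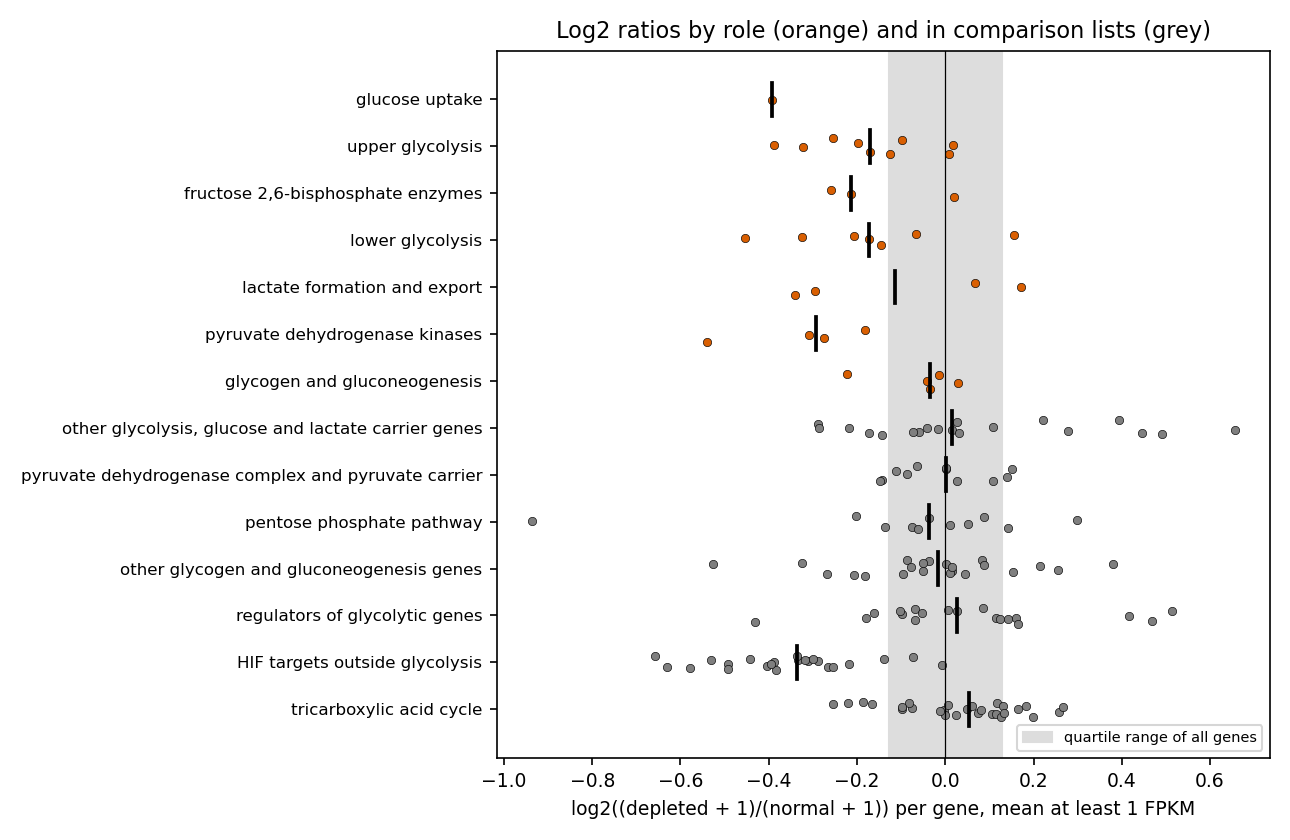
Log2 ratio of the depleted to the normal diet for each measured gene, by role of the members (orange) and in the comparison lists (grey), with black bars for medians and a band between the quartiles of all measured genes, 1 library per diet. The glycolytic roles and the HIF targets lie to the left of 0, with medians from -0.11 for lactate genes to -0.39 for glucose uptake, where a single gene was measured, while the median of the tricarboxylic acid cycle is 0.05.

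Several genes that react quickly to the handling of tissue also differed between the libraries. Of 8 immediate early genes 7 were lower in the depleted-diet library (median -0.45), against 50.6% of all measured genes. The lowest ratios were those of FOS, at 60.6 and 37.1 FPKM, and DUSP1, at 17.7 and 8.12 FPKM. EGR1 was at 12.6 and 12.4 FPKM, and IER2 was higher, at 23.4 and 27.1 FPKM. This list was added after the values were seen. Genes that mark other cells were read as lists. Their summed levels on the normal and depleted diets were 4.42 and 3.86 FPKM for 7 fibroblast genes, 0.211 and 0.108 FPKM for 6 endothelial genes, 0.300 and 0.077 FPKM for 7 erythroid genes, 4.97 and 2.76 FPKM for 5 adipocyte genes, and 26.8 and 22.7 FPKM for 9 macrophage and neutrophil genes. Single genes made up most of some sums. CD68, a macrophage gene, was at 25.6 and 20.8 FPKM. CD14, the other measured gene of its list, was higher on the depleted diet, at 0.709 and 1.49 FPKM. CIDEC, an adipocyte gene, was at 4.46 and 2.25 FPKM. The fibroblast genes COL1A1 and LUM were at 2.33 and 2.77 FPKM and at 1.99 and 0.966 FPKM. DCN, PDGFRA, KDR, HBA1 and FABP4 were at 0 in both libraries, and PTPRC was under 0.03 FPKM in both. Host cells are mouse cells, and the part of host reads or handling in the glycolytic values was not tested.

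Copies and neighbours limit single values. GENCODE release 29 names 62 pseudogenes after GAPDH, 13 after PGAM1, 6 after LDHA and 5 after PKM, and 12 members have at least 1, so reads of these genes may have been shared out. Without those 4 members 22 were lower and 7 higher, with the same median of -0.18. Exons of 21 members overlap another gene, on the other strand for 16.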

How the data were processed

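RNA of 2 tumour libraries, 1 per diet, was made into libraries with a stranded kit for mRNA, per the labels. The deposited tables give FPKM for 26255 gene symbols, a unit set by the authors, per the file headers. The submitters' processing notes list Cuffdiff 2.2.1, TopHat2 2.1.1, SAMtools 0.1.18 and Bowtie2 2.2.8 and the hg19 build, with no order or role. They do not state the annotation, the strand setting, pooling of tumours or whether mouse reads were removed.

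Since FPKM cannot enter a count model, ratios were taken with 1 FPKM added to each value, which shrinks ratios of low genes, and only for genes whose mean reached 1 FPKM. Isozyme shares and ratios between paralogs used FPKM as deposited. Depth came from 2924 genes under 1 FPKM in both libraries. In 66.7% of them the 2 values stood in a ratio of whole numbers up to 8, within 0.1%, against 2.29% after jitter. For 124 of these with 1 GENCODE transcript, the estimates of depth had quartiles of 3.98e+06 and 7.38e+06 fragments. Lengths and overlaps come from GENCODE release 29, which is on another build.

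The members, the gene lists and the 80% line were chosen with earlier results of these data known. Immediate early genes and the pairs of paralogs were added after the values were seen. All members are given. In each comparison list the 2 highest and 2 lowest ratios among genes averaging 5 FPKM or more could be named. HIF1A, HKDC1, SLC5A1, SLC2A8, the genes with overlapping exons and the marker genes were named outside that rule, after their values were seen. Alternatives covered the pseudocount, filter, scaling, fold and summary. The ratio step was tested on simulated data. Python 3.11.15 and pandas 2.3.3 were used.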

Additional observations from a re-analysis of the deposited data

How the results depend on the processing

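No paired analysis was possible because only 1 library stands for each diet, so leaving one out was not possible either. The number of members lower on the depleted diet was 24, with 9 higher, after scaling to a common sum of FPKM. With fewer members it was 23, with 6 higher, at a mean of at least 5 FPKM. Without members with many pseudogenes it was 22, with 7 higher. In the other alternatives it was 26, with 7 or 8 higher. The median of the members was -0.20 to -0.15 over all alternatives. The count of 7 members below the 80% line was 4 when the libraries were brought to the same sum of FPKM. There ALDOC, PGK1 and SLC16A3 dropped out. No member was 1.5-fold lower, so the count was 0 at 1.5-fold and at 2-fold. It was 5 to 8 in the other alternatives. Among genes averaging 20 FPKM or more, 3.54% were below the 80% line and 2.59% above the 125% line, in place of 7.15% and 6.94%. Leaving out members with many pseudogenes was chosen after seeing the data. Of the single members' log2 ratios, 189 values kept their direction and side of these lines, 7 came inside them, 1 went past (PDK3 at a pseudocount of 0.1, -0.49), and 2 near 0 changed sign. Counting error is largest for SLC2A3, PDK3, ENO3, PFKL and PFKM.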

Other observations

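Neighbouring branches of glucose use were read from the same libraries. The pentose phosphate pathway, which makes NADPH and ribose, had 6 of 11 measured genes lower on the depleted diet and a median log2 ratio of -0.04. TKT, transketolase, was at 202 and 184 FPKM on the normal and depleted diets (-0.14), and PRPS2, which makes the activated ribose for nucleotides, at 4.47 and 5.73 FPKM (0.30).

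Further glycogen and gluconeogenesis genes were lower in 11 of 22 and higher in 11, with a median of -0.02. STBD1, which tethers glycogen to membranes, was at 10.3 and 6.84 FPKM (-0.53), and PPP1R3B, which brings a phosphatase to glycogen, at 12.5 and 9.78 FPKM (-0.32). PGM3, of the hexosamine pathway, was at 19.3 and 25.4 FPKM (0.38), and GYG1, the primer of glycogen, at 18.8 and 22.7 FPKM (0.26).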
